A study of Mus musculus with 6 samples.

Results

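The voltage-gated sodium and calcium channel genes were described on 6 arrays of female BALB/c mouse tissue. Members were taken by name, as every gene whose platform symbol reads Scn, a number and a or b, or Cacna, Cacnb or Cacng and a number, with the probe of highest mean log2 intensity per gene. This gave 37 of the 17742 named genes, from 45 probes: 8 sodium channel alpha subunits, 3 sodium channel beta subunits, 10 calcium channel alpha1 subunits, 4 alpha2delta subunits, 4 beta subunits and 8 gamma subunits. Scn2a, another brain sodium channel, carries the older symbol Scn2a1 on this platform and so lay outside the rule.

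The study asked how Sheng-Hua-Tang (SHT), a herbal decoction, acts on female reproductive tissue. The groups were brain, ovary and uterus of mice dosed orally with SHT at 200 mg/kg for 7 days, each set against the same tissue of untreated (mock) mice. With 1 array in each of the 6 groups, differences between SHT and mock have no replicate behind them, and so few arrays limit how precisely any value is known. The sources used here do not give the mice's age, how many stand behind an array, or whether tissue was pooled. Array medians lay between 179 and 224 intensity units. The 528 olfactory receptor genes, which most tissues hardly transcribe, served as background, and their 95th percentile lay between 275 and 542 on the 6 arrays. A reading under that percentile of its own array is called within the background below.

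The tissue markers went against 4 of the 6 labels, so the arrays are named by their labels only, for example "SHT brain". Snap25, a neuronal release protein, read 209.8 on SHT brain against 58204 on mock brain, 60038 on SHT ovary against 810.5 on mock ovary, and 1601 on SHT uterus against 768 on mock uterus. Hsd3b1, a steroidogenic enzyme of the gonad, read 40566 on SHT brain and 51780.0 on mock uterus and stayed within the background elsewhere. The brain markers were thus brightest on SHT ovary and mock brain, and the ovarian ones on SHT brain and mock uterus. Krt5, a keratin of stratified epithelium, was bright on SHT uterus (29948) and mock ovary (36716) and at most 250.2 elsewhere. No pair with a shared tissue label held 2 arrays of like markers. No SHT difference below can therefore be told apart from a difference between tissues, and none could be given without a doubted array.

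Voltage-gated sodium channels open on depolarisation and carry the upstroke of the action potential in neurons and striated muscle. Voltage-gated calcium channels turn the same depolarisation into calcium entry, which triggers transmitter release, contraction and hormone secretion. In both families a large alpha subunit forms the pore and senses voltage. Smaller subunits (beta for sodium channels, beta and alpha2delta for calcium channels) set how many channels reach the membrane and how they gate. Most of the gamma family are better known as partners of AMPA-type glutamate receptors, and are then called TARPs. In brain these genes are mainly neuronal, whereas in the uterus calcium channels of smooth muscle drive contraction.

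Most channel genes that could be read were brightest on the arrays with brain markers. Of all 37 members, 29 had SHT ovary and mock brain as their 2 highest arrays, against 31.1% of all genes, but 10 of these 29 were within the background on every array, where readings set no order. Of the 37, 22 lay above the background on at least 1 array, against 65.9% of all genes and 8.52% of the olfactory receptor genes, so the members' share was close to that of genes at large. A gene bright on only 1 or 2 arrays enters those 22 through them, so the counts within the 22 describe and do not test. Per array, 10 of the 37 were above the background on SHT brain (54.4% of all genes) and 19 on mock brain (44.2%), 21 on SHT ovary (48%) and 12 on mock ovary (51.1%), 11 on SHT uterus (55.2%) and 9 on mock uterus (55.3%). On SHT brain, mock ovary, SHT uterus and mock uterus the members' share was thus below that of all genes. Among the 22, 19 had the same 2 highest arrays, against 28.2% of all genes above the background, and 3 (Cacna1c, Cacng6 and Scn7a) did not. In 15 of the 22 the dimmer of SHT ovary and mock brain was at least 2-fold over the brightest of the other 4 arrays, against 13.4% of such genes. In 6, Scn1a, Scn8a, Scn2b, Scn3b, Cacna1i and Cacng3, that gap was at least 10-fold as read, against 4.38%.

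**Figure D1:**
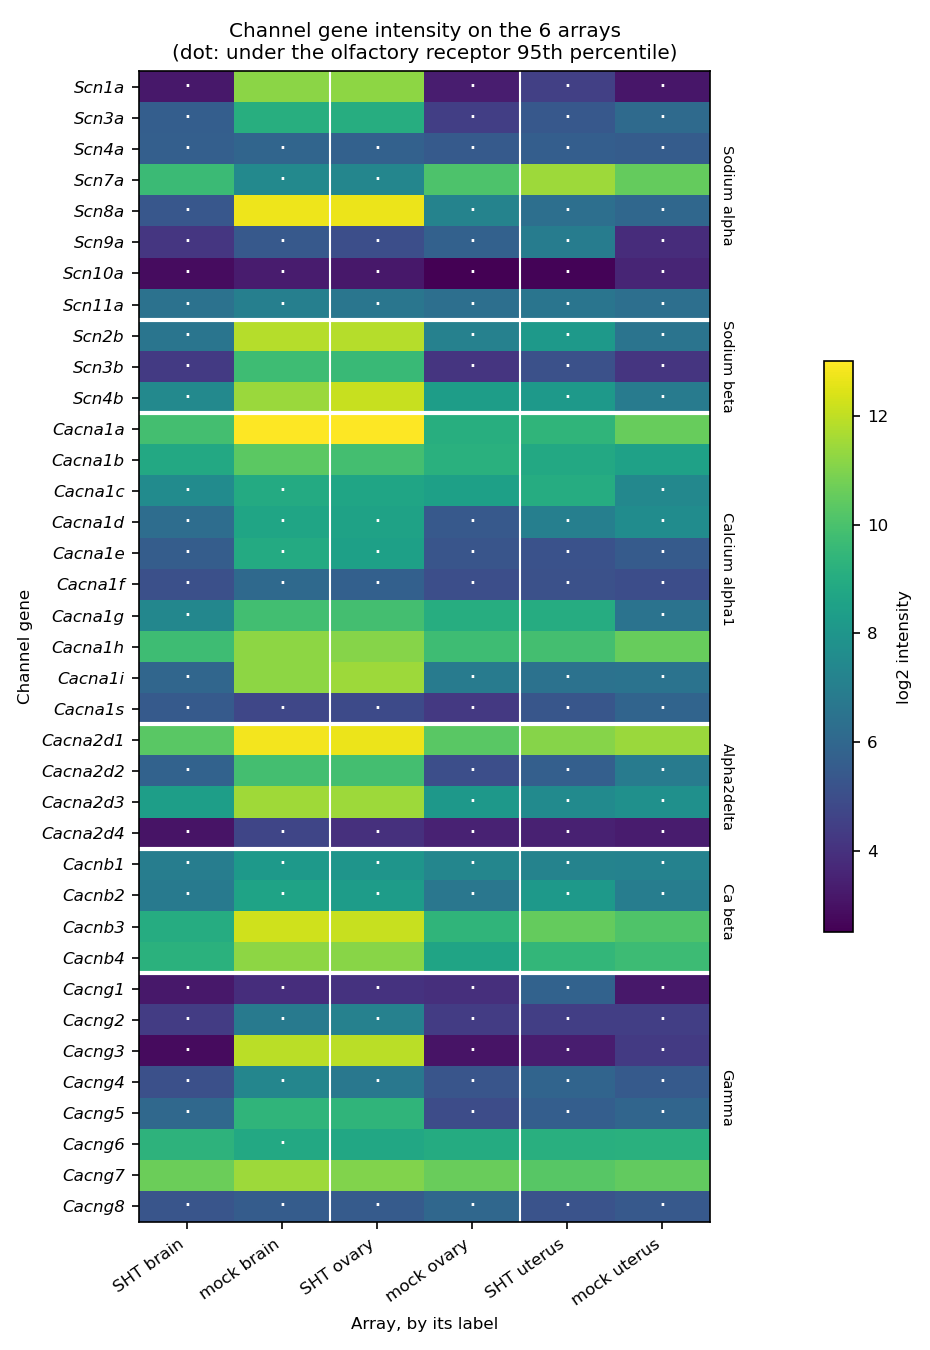
Each row is 1 of the 37 channel genes, grouped by subunit type, and each column is 1 array named by its label, with colour for log2 intensity and a dot where a reading is within the background of its array. The 2 columns SHT ovary and mock brain are the brightest for 19 of the 22 rows that hold a reading above the background, and Scn7a runs the other way; brightness between rows also reflects the probes and sets no order among genes.

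The promoter windows of 3 genes are shown, to set the start regions of genes with like and unlike values side by side. They run from 250 bases before to 50 after the outermost start in the RefSeq table of GRCm38.p6, are given as that table gives them for the strand named, and have each CG pair in capitals. Scn8a and Scn1a were bright on the same 2 arrays, and Scn7a ran opposite to both.
Scn8a, chr15:100870395-100870694, plus strand: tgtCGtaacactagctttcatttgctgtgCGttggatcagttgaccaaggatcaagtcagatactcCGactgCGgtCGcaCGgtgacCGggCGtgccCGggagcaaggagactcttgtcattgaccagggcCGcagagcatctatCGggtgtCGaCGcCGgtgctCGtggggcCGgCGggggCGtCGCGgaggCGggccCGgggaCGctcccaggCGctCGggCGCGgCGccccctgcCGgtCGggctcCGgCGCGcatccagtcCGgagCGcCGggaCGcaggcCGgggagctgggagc
Scn1a, chr2:66440788-66441087, minus strand: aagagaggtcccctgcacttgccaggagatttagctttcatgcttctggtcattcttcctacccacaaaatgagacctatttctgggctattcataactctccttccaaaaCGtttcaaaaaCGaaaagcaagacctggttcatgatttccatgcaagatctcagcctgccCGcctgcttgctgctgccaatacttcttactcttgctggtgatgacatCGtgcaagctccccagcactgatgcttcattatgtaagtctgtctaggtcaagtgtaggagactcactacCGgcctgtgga
Scn7a, chr2:66784861-66785160, minus strand: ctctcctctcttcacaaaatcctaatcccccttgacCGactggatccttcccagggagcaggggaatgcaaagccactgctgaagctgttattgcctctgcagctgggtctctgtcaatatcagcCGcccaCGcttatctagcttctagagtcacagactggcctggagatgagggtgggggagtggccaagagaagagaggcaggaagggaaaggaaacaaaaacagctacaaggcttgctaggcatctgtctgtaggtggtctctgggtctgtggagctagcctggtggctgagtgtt
The Scn8a window held 38 CG pairs, a number reached by 4.95% of the 32851 windows in the table. The windows of Scn1a and Scn7a held 5 and 3, reached by 62.0% and 76.7% of all windows. Windows were on hand for 29 of the 37 members, and the CG pairs in the outermost one ran from 2 in Scn2b and Cacng8 to 43 in Cacna2d2, with a median of 11 against 7 over all windows. Scn2b and Scn8a, both over 10-fold brighter on SHT ovary and mock brain as read, thus stood near the opposite ends of that range. CG pairs in these windows are a description of the letters and were not tested against the values.

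Among the sodium channel pores, the brain subunits were bright on SHT ovary and mock brain only. Scn8a encodes Nav1.6, the channel of the axon initial segment and nodes of Ranvier, and read 40.9 on SHT brain against 6761 on mock brain, 6591 on SHT ovary against 148 on mock ovary, and 81.9 on SHT uterus against 64.4 on mock uterus. Scn1a encodes Nav1.1, the main sodium channel of fast-spiking interneurons, and read 8.98 on SHT brain against 2296 on mock brain, 2363 on SHT ovary against 10.03 on mock ovary, and 22.3 on SHT uterus against 8.69 on mock uterus. In both genes the 4 other arrays lay within the background. Scn3a, Nav1.3, which is best known from the developing brain, read 50.1 on SHT brain against 546 on mock brain, 536 on SHT ovary against 22.0 on mock ovary, and 42.0 on SHT uterus against 70.8 on mock uterus. Of these, the mock brain value was barely above its background of 542, the SHT ovary one stood above its 403, and a second Scn3a probe, which read 278 on SHT ovary and 274 on mock brain, reached neither. Scn2a, outside the rule, showed the same order, with 3997 and 4016 against at most 115.

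Scn7a was the exception. It encodes Nax, a channel that responds to the sodium level rather than to voltage and is known from glia and peripheral nerve. Scn7a read 815 on SHT brain against 175 on mock brain, 159.6 on SHT ovary against 1087 on mock ovary, and 2845 on SHT uterus against 1491 on mock uterus. Its 4 bright arrays were exactly those on which Scn1a and Scn8a lay within the background, and the reverse also held. On SHT uterus it was brightest, and no replicate shows how much of the spread from 815 to 2845 lies between mice. The smooth muscle markers Acta2, Des, Smtn and Cnn1 summed to 49819.8 on SHT brain against 3346 on mock brain, 2534 on SHT ovary against 89752 on mock ovary, and 82539 on SHT uterus against 51908 on mock uterus, so they were low on the same 2 arrays, where 2 of the 4 were above the background. Of the Schwann cell markers, Pmp22 was also lowest there, while Sox10, shared with oligodendrocytes, was highest there and Cdh19 was within the background throughout. The part of these cells in the Scn7a values was not tested.

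The other sodium channel pores were not seen. Scn4a, the channel of skeletal muscle, read between 44.4 and 60.9 on the 6 arrays. Scn9a, Scn10a and Scn11a, the channels of pain-sensing neurons, read no more than 131 on any array. All 24 readings of these 4 genes lay within the background, so neither presence nor absence can be read from them.

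The 3 sodium channel beta subunits on the array followed the brain pores. Scn2b, which is disulphide-linked to the pore, read 96.5 on SHT brain against 3687 on mock brain, 3658 on SHT ovary against 140.2 on mock ovary, and 292 on SHT uterus against 93.7 on mock uterus. Scn3b, which binds without such a link, read 19.7 on SHT brain against 868 on mock brain, 793 on SHT ovary against 17.4 on mock ovary, and 34.3 on SHT uterus against 17.6 on mock uterus. Scn4b, known from Purkinje cells and striatum and for its part in resurgent current, read 173 on SHT brain against 2759 on mock brain, 4500.2 on SHT ovary against 322 on mock ovary, and 293 on SHT uterus against 117 on mock uterus. In all 3 the values on SHT ovary and mock brain were apart from the rest, and only Scn4b was above the background elsewhere, marginally, on mock ovary. Scn4b also differed most between those 2 bright arrays, at 1.63-fold.

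Of the high-voltage-activated pores of synapses, the P/Q-type and N-type channels were above the background on all 6 arrays and the R-type on none. Cacna1a is the P/Q-type channel that triggers release at most central synapses. Cacna1a read 926 on SHT brain against 8231 on mock brain, 8062 on SHT ovary against 539 on mock ovary, and 662 on SHT uterus against 1506 on mock uterus. Outside SHT ovary and mock brain it was highest on SHT brain and mock uterus, the arrays bright for ovarian markers. Cacna1b, the N-type channel, read 461 on SHT brain against 1317 on mock brain, 929 on SHT ovary against 577 on mock ovary, and 455 on SHT uterus against 364 on mock uterus. Its gap was smaller, and a second probe gave the same 2 highest arrays at 141 and 171 but stayed within the background. Cacna1e, the R-type channel, read 358 on SHT ovary and 479.7 on mock brain and at most 48.3 elsewhere, all within the background.

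The L-type channels, which couple depolarisation to contraction and to gene expression, were within or close to the background. Cacna1c, the L-type channel of smooth and cardiac muscle and of neurons, read 191 on SHT brain against 483 on mock brain, 410.2 on SHT ovary against 352 on mock ovary, and 511 on SHT uterus against 171 on mock uterus. It was above the background on SHT ovary, SHT uterus and mock ovary, and the 2 arrays with ovarian markers were the lowest. Cacna1d, the L-type channel of neuroendocrine cells and the sinoatrial node, had SHT ovary and mock brain as its highest arrays (372 and 415), but every reading was within the background. Cacna1s of skeletal muscle and Cacna1f of the retina read at most 58.4 and 67.4.

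The T-type pores, which open near the resting potential and support rhythmic firing, showed 3 different patterns. Cacna1i, Cav3.3, read 62.9 on SHT brain against 2392 on mock brain, 2826 on SHT ovary against 117 on mock ovary, and 88.9 on SHT uterus against 89.5 on mock uterus, so that only SHT ovary and mock brain were above the background. Cacna1h, Cav3.2, was above the background everywhere and read 855 on SHT brain against 2361 on mock brain, 2181 on SHT ovary against 864 on mock ovary, and 933 on SHT uterus against 1522 on mock uterus. Cacna1g, Cav3.1, read 163 on SHT brain against 899 on mock brain, 933 on SHT ovary against 522 on mock ovary, and 509.8 on SHT uterus against 89.8 on mock uterus. The last of these was above the background on SHT ovary, mock brain, SHT uterus and mock ovary, and within it on SHT brain and mock uterus. Cacna1c and Cacna1g thus shared their 2 lowest arrays, those with ovarian markers, although neither reading was above the background there.

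**Figure D2:**
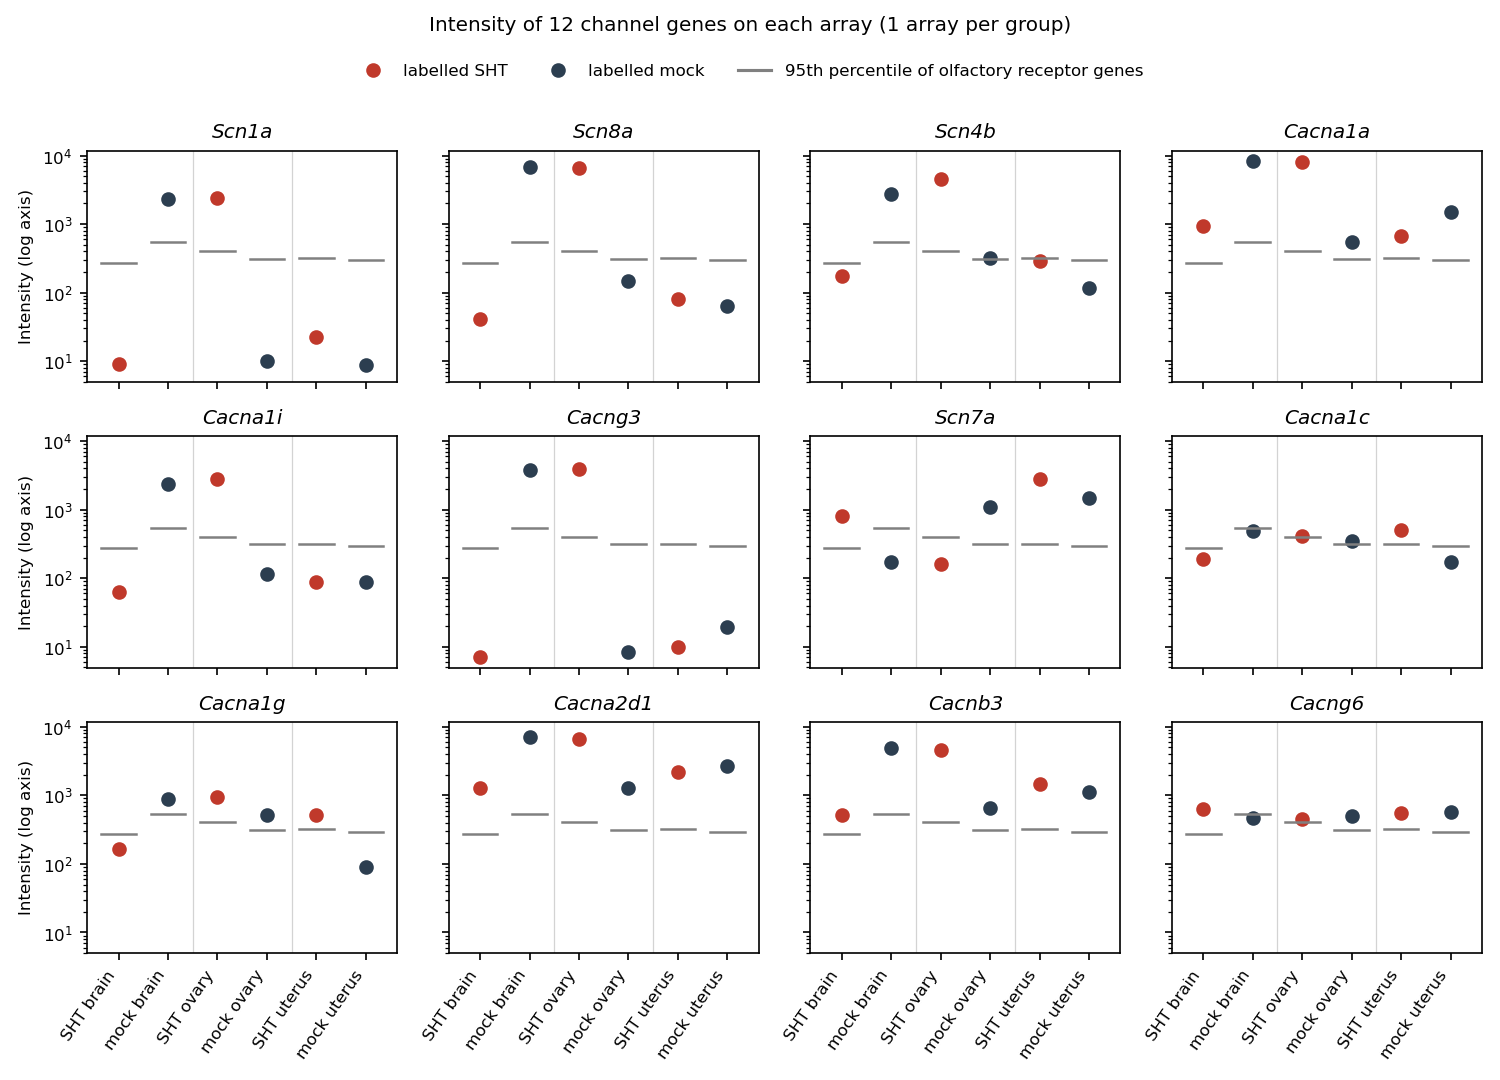
Intensity of 12 channel genes on each array (log axis), with red points for arrays labelled SHT, dark points for arrays labelled mock, and a grey bar at the background of that array. Scn1a, Scn8a, Cacna1i and Cacng3 clear the bar on SHT ovary and mock brain only, Scn7a clears it on the other 4 arrays only, and Cacng6 is nearly level.

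Among the accessory subunits of calcium channels, 3 of 4 alpha2delta and 2 of 4 beta genes were above the background on at least 1 array, each with SHT ovary and mock brain highest. Cacna2d1, a binding site of gabapentin that carries channels to the surface, read 1266 on SHT brain against 7164 on mock brain, 6581 on SHT ovary against 1284 on mock ovary, and 2209 on SHT uterus against 2716 on mock uterus, above the background on every array, while its second probe read between 18.6 and 41.0 and was within it. Cacna2d3 read 332 on SHT brain against 2918 on mock brain, 2802 on SHT ovary against 278 on mock ovary, and 184 on SHT uterus against 220.0 on mock uterus, so that SHT brain was the only other array above the background. Cacna2d2, the other gabapentin-binding subunit, read 55.4 on SHT brain against 928 on mock brain, 926 on SHT ovary against 32.4 on mock ovary, and 52.0 on SHT uterus against 117 on mock uterus. A second probe had the same 2 highest arrays, at 435 on SHT ovary and 451 on mock brain, the latter within the background. Cacna2d4 of the retina stayed at or under 26.1.

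The cytoplasmic beta subunits Cacnb3 and Cacnb4, both abundant in brain, were above the background on all 6 arrays. Cacnb3 read 519 on SHT brain against 4864 on mock brain, 4527 on SHT ovary against 664 on mock ovary, and 1486 on SHT uterus against 1118 on mock uterus. Cacnb4 read 594 on SHT brain against 2384 on mock brain, 2269.7 on SHT ovary against 395 on mock ovary, and 699.8 on SHT uterus against 837 on mock uterus. In both, SHT ovary and mock brain were apart from the rest, and the next highest arrays were SHT uterus and mock uterus, in either order. Cacnb2, a partner of Cacna1c in heart, read 314 on SHT ovary, 383 on mock brain and 295 on SHT uterus and at most 124 elsewhere, all within the background. Cacnb1, the beta subunit of skeletal muscle, read at most 290.2 on the probe used, with SHT ovary and mock brain highest. A second probe also had these highest, at 313 and 326. The last of its 3 probes read between 29.6 and 39.4, and all readings were within the background.

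The gamma family held both genes with a wide gap between arrays and, among the 22 above the background, the most level gene. Cacng3, a TARP of cerebral cortex, read 7.05 on SHT brain against 3843 on mock brain, 3904 on SHT ovary against 8.31 on mock ovary, and 10.02 on SHT uterus against 19.5 on mock uterus. As read, SHT ovary and mock brain were 197-fold or more over the other 4 arrays. With every dim reading set to its background the gap was 12.1-fold, and that of Scn8a 20.7-fold. A second Cacng3 probe read 659 on mock brain, above the background, but 266 on SHT ovary, within it, and at most 6.32 elsewhere. Cacng5, a type II TARP, read 66.2 on SHT brain against 672 on mock brain, 656 on SHT ovary against 30.7 on mock ovary, and 49.98 on SHT uterus against 61.7 on mock uterus. On the probes used, Cacng3 and Cacng5 were above the background on SHT ovary and mock brain only. Cacng7, also type II, was above it on every array and read 1603 on SHT brain against 2811 on mock brain, 2064 on SHT ovary against 1566 on mock ovary, and 1245 on SHT uterus against 1412 on mock uterus. Cacng6, a relative of the muscle subunit Cacng1, read 636 on SHT brain against 462 on mock brain, 451 on SHT ovary against 496 on mock ovary, and 556 on SHT uterus against 569.9 on mock uterus, a range of 1.41-fold, with mock brain alone within the background. Cacng2 (stargazin), Cacng4, Cacng8 and Cacng1 were within the background throughout, at no more than 138, 162, 64.3 and 56.0. A second Cacng8 probe, dimmer on the log2 scale, did place SHT ovary (165) and mock brain (99.6) highest, and it too was within the background.

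Neuronal markers were, like most of the channel genes above the background, highest on SHT ovary and mock brain. The 5 neuron markers on the array (Snap25, Rbfox3, Gap43, Map2 and Stmn2; Syt1 had no named probe) summed to 1492 on SHT brain against 123679 on mock brain, 128012 on SHT ovary against 6174 on mock ovary, and 4630.3 on SHT uterus against 2545 on mock uterus. All 5 were above the background on SHT ovary and mock brain, 4 on SHT uterus and mock ovary, 2 on mock uterus and 1 on SHT brain. Their part in the channel values was not tested, and in whole tissue fewer cells of a type cannot be told apart from less RNA per cell.

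In the pair labelled brain, channel genes were lower on SHT brain than on mock brain. Differences are log2 SHT minus mock, relative to the median gene of the pair (a shift of -0.04 for brain, 0.14 for ovary and 0.04 for uterus), and a gene counts where its pair mean is above the median of pair means over all probes. Of 17 members above that level, 14 were at least 2-fold lower, against 23.2% of 10746 genes, and 1, Scn7a, was at least 2-fold higher, against 22.8%. The members' median was -2.46, against 0 for all genes above the level. Folds are lower bounds ("at least") where the dimmer array was within its background, which then replaces the reading, while calls use the readings as they stand. Scn8a was at least 23.9-fold lower, Cacng3 at least 13.6-fold, Scn2b at least 13.1-fold, Scn4b at least 9.77-fold, Cacna1i at least 8.47-fold and Scn1a at least 8.13-fold. Where both arrays were above the background, Cacnb3 was 9.14-fold lower, Cacna1a 8.66-fold, Cacna2d3 8.56-fold, Cacna2d1 5.51-fold, Cacnb4 3.91-fold, Cacna1b 2.78-fold and Cacna1h 2.69-fold. With a gene's probes averaged, the log2 difference was -2.54 for Cacna1b and -1.78 for Cacna2d1, against -1.48 and -2.46 on the probe used. Scn7a was at least 1.54-fold higher. Cacng7 and Cacng6 differed by under 2-fold. Also among the 14, Cacna2d2 was at least 3.29-fold lower and Cacna1g at least 3.18-fold. Cacna1c is counted there on its readings, but has no fold since both arrays were within the background. Cacng3 and Scn1a, both far within the background on SHT brain, fell short of the level and are not among the 14. The same held for Scn3b (at least 3.07-fold lower), Cacng5 (at least 2.38-fold) and Scn3a (at least 1.93-fold). Without a level floor the count of lower members was 27 and that of higher members 1, with no share of all genes on hand at that setting. These 27 include members within the background on both arrays, such as Cacna1d and Cacna1e, whose readings set no order.

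The pair labelled ovary ran the other way. Of 16 members above the level, 10 were at least 2-fold higher on SHT ovary than on mock ovary, against 22.9% of 10692 genes, and 1, again Scn7a, was at least 2-fold lower, against 23.6%. The members' median was 2.30. Scn8a was at least 19.2-fold higher, Cacng3, which fell short of the level, at least 11.4-fold, Scn2b at least 10.6-fold, Cacna1i at least 8.23-fold and Cacna2d3 at least 8.16-fold. With both arrays above the background, Cacna1a was 13.6-fold higher, Scn4b 12.7-fold, Cacnb3 6.19-fold, Cacnb4 5.22-fold, Cacna2d1 4.66-fold and Cacna1h 2.29-fold. Scn7a was at least 2.97-fold lower. Cacna1b, Cacna1c, Cacna1g, Cacng6 and Cacng7 differed by under 2-fold. Like Cacng3, other higher genes fell short of the level. They were Scn1a (at least 6.88-fold), Cacna2d2 (at least 2.70-fold), Scn3b (at least 2.31-fold), Cacng5 (at least 1.91-fold) and Scn3a (at least 1.56-fold). Averaging probes gave a log2 difference of 1.81 for Cacna1b and 1.11 for Cacna2d1, against 0.55 and 2.22 on the probe used. With no level floor 21 members were higher and 1 lower, again without a share of all genes and with Cacna1d and Cacna1e among the higher.

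In the pair labelled uterus few members were called. Of 10 members above the level, 1 was at least 2-fold higher on SHT uterus than on mock uterus, against 12.5% of 10765 genes, and 1 was at least 2-fold lower, against 9.04%. The higher gene was Cacna1c (at least 1.69-fold against the background of mock uterus, and over 2-fold as read) and the lower one Cacna1a (2.33-fold). Scn7a was 1.86-fold higher and Cacna1h 1.67-fold lower, both under the threshold. Cacna1g, at least 1.69-fold higher, fell short of the level. The smooth muscle marker sum was also higher on SHT uterus than on mock uterus, as given above with Scn7a, and its part in the Cacna1c value was not tested.

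Several members moved in opposite directions under the same contrast. Between the pairs labelled brain and ovary this held, at 2-fold or more in each, for 11 of 16 members above both levels, against 34% of genes. It held for 1 of 10, Cacna1c, between brain and uterus, against 6.76%, and for 1 of 10, Cacna1a, between ovary and uterus, against 10.5%, so these last were near the share of all genes. Both brain readings of Cacna1c were within the background. With 1 array per group these contrasts between pairs were not tested. SHT ovary and mock brain read nearly alike (Pearson 0.996, log2, over all probes) and stand on opposite sides of their pairs. A gene far brighter or dimmer on both than on SHT brain and mock ovary was thus bound to reverse between brain and ovary. The 11 of 16 therefore describes and does not test.

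**Figure D3:**
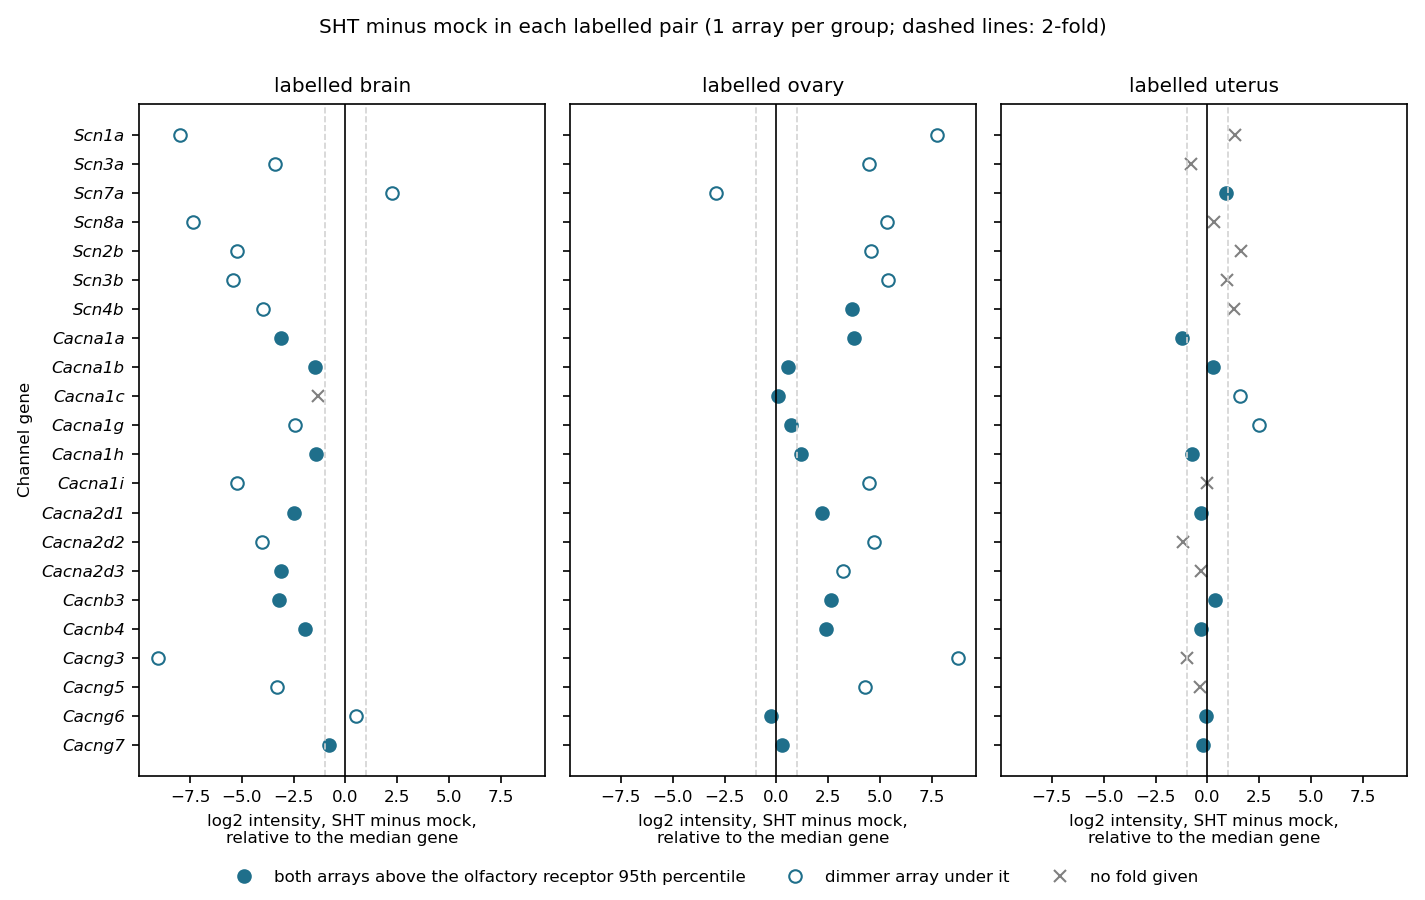
Each point is the log2 difference SHT minus mock of 1 of the 22 channel genes above the background on at least 1 array, relative to the median gene of that labelled pair; filled points have both arrays above the background, open points have the dimmer array within it, and crosses have no fold. All genes but Scn7a and Cacng6 lie left of 0 in the pair labelled brain and right of 0 in the pair labelled ovary, those 2 do the reverse, and in the pair labelled uterus most lie between the dashed 2-fold lines.

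Averaged over the 3 labelled tissues, no SHT effect was called. In the limma fit with labelled tissue as a block, 0 of 16 members tested and 0 of 10763 genes (0%) passed an adjusted p of 0.05, with 0 members and 4 genes at an unadjusted p under 0.05. Among members the lowest adjusted p was 0.99996 (limma, Benjamini-Hochberg) and the standard errors of the log2 effect ran from 0.47 for Cacng7 to 2.70 for Scn8a. The estimate for Scn8a, -0.51, averages a lower value in the pair labelled brain with a higher one in that labelled ovary.

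Across labels, the arrays closest to each other shared neither tissue label nor treatment label. Over all probes, which are not independent replicates, SHT ovary and mock brain correlated at 0.996 (Pearson, log2), SHT brain and mock uterus at 0.981, and SHT uterus and mock ovary at 0.972. Of the 22 channel genes above the background somewhere, 21 were within 1.5-fold between SHT ovary and mock brain on the probe used, against 98.2% of all such genes. The same held for 12 of 22 between SHT brain and mock uterus, against 70.7%, and for 10 of 22 between SHT uterus and mock ovary, against 53.9%. Between arrays that share a tissue label, 1 of 22 was within 1.5-fold in brain, against 33.6%, 3 of 22 in ovary, against 33.3%, and 10 of 22 in uterus, against 59.3%. The gene outside 1.5-fold between SHT ovary and mock brain was Scn4b, at 1.63-fold brighter on SHT ovary. Of the 3290 genes above the background with these as their 2 highest arrays, 0.851% were as far apart as 1.5-fold in either direction. Only 1 gene (0.0304%), Scn4b itself, was brighter on SHT ovary by its ratio or more. Genes brighter on mock brain by as much were not counted. Over the 19 members with these 2 highest arrays the ratio of SHT ovary to mock brain ran from 0.71 in Cacna1b, with a median of 0.98.

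**Figure D4:**
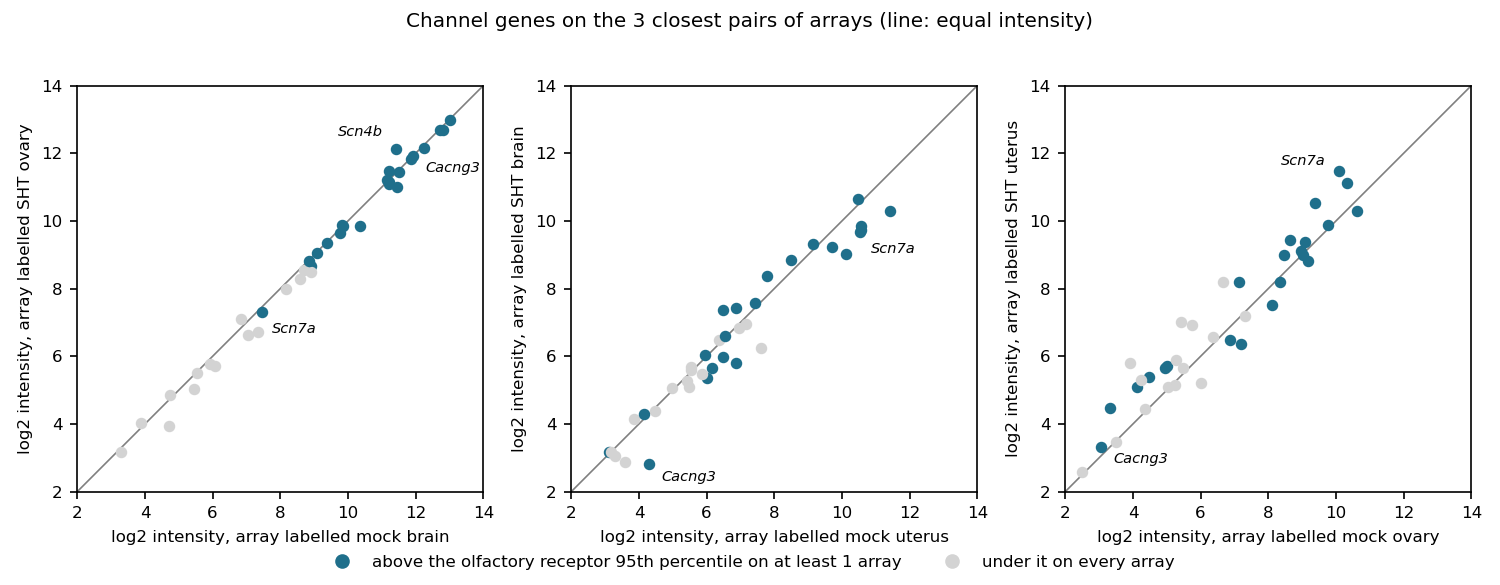
Log2 intensity of the 37 channel genes on the 3 closest pairs of arrays, with 1 array per axis, blue points for the 22 genes above the background on at least 1 array, grey points for the other 15 and a line at equal intensity. Between SHT ovary and mock brain the blue points lie near the line, with Scn4b the farthest above it, and they scatter more in the other panels.

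The partners that place and tune sodium channels mostly followed them. At the axon initial segment and node, ankyrins and spectrin anchor sodium channels and the FHF proteins Fgf11 to Fgf14 bind their tails. Of 13 such genes, 10 were above the background and 9 of these were highest on SHT ovary and mock brain, against 28.2% of all genes above the background. The exception, Nedd4l, was highest on SHT uterus (3287), with 3177 on mock brain and 3069 on SHT ovary. Ank3 (ankyrin-G) read 12519.8 on SHT ovary and 12054 on mock brain, and between 1219 and 3815 on the other 4. In the pair labelled brain 9 of 11 above the level were at least 2-fold lower and 0 higher, with a median of -4.11, against 23.2% and 22.8% of all genes. In the pair labelled ovary 10 of 11 were higher and 0 lower (median 3.85), against 22.9% and 23.6%. In that labelled uterus 0 of 7 were higher and 2 lower (median -0.08), against 12.5% and 9.04%. Fgf12, Sptbn4 and Fgf13 moved most in the pair labelled ovary, and Fgf12 read 8188 on SHT ovary and 6797 on mock brain, and between 55.6 and 141 on the other 4.

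The regulators of calcium channels did not all read alike. Erc2, Rims1 and Rims2, which tether the channel at the release site, Cabp1, a calcium sensor, and Stac2, which slows inactivation, made up the 5 of 8 detected genes that were highest on SHT ovary and mock brain, against 28.2% of genes. Erc2 read 5619 on SHT ovary and 5679 on mock brain, and between 151 and 183 on the other 4. The RGK GTPases, which reduce calcium current, held genes that were low there. Gem read 1223 on SHT brain against 136 on mock brain, 122 on SHT ovary against 1070.4 on mock ovary, and 2009.6 on SHT uterus against 1443 on mock uterus. Rem1 and Rrad, of the same family, were likewise lowest on SHT ovary and mock brain, at 121 and 128 for Rem1, both within the background, and 521 and 862 for Rrad, both above it. Rem2, the neuronal member, was within the background on every array. Over the 12 genes, 5 of 8 above the level were lower (23.2% of all genes) and 2 higher (22.8%) in the pair labelled brain, with a median of -3.98. In ovary 5 of 8 were higher (22.9%) and 3 lower (23.6%), with a median of 2.64, and in uterus 0 of 5 were higher (12.5%) and 1 lower (9.04%), with a median of 0.33.

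Genes of the membrane junctions that hold calcium channels to internal stores were fewer. Of 9, 6 had a named probe (none for Ryr1, Ryr2 and Ryr3), and 3 were above the background. Jph3, a neuronal junctophilin, read 4942 on SHT ovary and 5266 on mock brain, and between 75.3 and 176 on the other 4. The muscle genes Jph1, Jph2 and Casq1 were within the background. Casq2 was above it on every array, at 637 on mock brain, 558 on SHT ovary and between 470 and 544 elsewhere. In this list 2 of 3 genes above the level were lower in the pair labelled brain (median -5.06), against 23.2% of all genes, and 2 of 3 higher in ovary (median 4.80), against 22.9%. Casq2, the 1 gene above the level in uterus, was not called.

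Of the wider channel family, Nalcn, a sodium leak channel, read 1145 on SHT ovary and 1275 on mock brain, and between 14.7 and 31.5 on the other 4. Its partners Unc79 and Unc80 shared that order, with 3719 and 2897 on SHT ovary and 3651 and 3067 on mock brain. The sperm channel genes Catsper1 to Catsper4 were within the background. Hvcn1, the proton channel of immune cells, read 338 on SHT brain against 169.8 on mock brain, 201 on SHT ovary against 458 on mock ovary, and 1637 on SHT uterus against 523 on mock uterus. Tpcn1 was above the background on every array and highest on SHT uterus (3226). In the pair labelled brain 1 of 3 genes above the level was higher and 1 lower, in ovary 1 was higher and 1 lower of 3, and in uterus 1 was higher and 0 lower of 2, with medians of 0.06, -0.70 and 1.16. Those above the level were Hvcn1, Tpcn1 and, in brain and ovary, Unc79. Nalcn and Unc80 fell short of it, so the counts and medians leave them out. So few genes cannot be read against the shares of all genes given above.

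Neighbouring channel genes did not always read alike. On mouse chromosome 2, Scn3a, Scn2a, Scn1a, Scn9a and Scn7a lie in a row, with 3 protein-coding genes between Scn2a and Scn1a and 0 between the other neighbours (RefSeq, GRCm38.p6). In this row Scn2a and Scn1a were bright on SHT ovary and mock brain, and Scn3a was highest there but barely above the background on mock brain. Scn9a was within the background, and Scn7a was bright on the other 4 arrays. On chromosome 7, Cacng7, Cacng8 and Cacng6 are also direct neighbours, of which Cacng7 was highest on SHT ovary and mock brain, Cacng8 was within the background and Cacng6 was nearly level. Scn2b and Scn4b, adjacent on chromosome 9, were both highest on SHT ovary and mock brain.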

How the data were processed

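Amplified RNA carried Cy5, 1 colour per array, per the labels' protocols. The authors' deposited values are linear intensities of 26423 probes, used as they stand. The submitters' processing notes name limma, without version or role; the handling of background, scaling and detection is not given there or in the labels.

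Groups follow the labels, and no array was moved to another group. Platform symbols, present for 20377 probes, were brought up to date with the RefSeq names of GRCm38.p6. Values below the 5th percentile of an array's positive values were set to it, log2 was taken, no array was scaled, and a gene's probe with the highest mean log2 represented it. Within a labelled tissue no test was possible; a called gene lay above the median pair mean over all probes and differed by 2-fold or more. For the average SHT effect, limma 3.58.1 (R 4.3.3) fitted 10763 genes with labelled tissue as block and a trended eBayes, two-sided with Benjamini-Hochberg adjustment; it measures the spread between labelled tissues, not between mice.

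Every member found by the name rule is named. Members above the background on at least 1 array are given with their values on all 6, and the other 15 by their range or maximum. From the partner lists, genes with large differences and some of those against the trend were named. Members, gene lists and tests were chosen with earlier results of these data known. Alternatives covered scaling, averaging of probes, level floors, a raised background, a stricter background percentile, a 3-fold threshold and, in limma, the trend, the block and leaving out each labelled tissue.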

Additional observations from a re-analysis of the deposited data

Results flagged for a closer look

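Opposite directions in different labelled tissues marked 3 results for a closer look, and with 1 array per group none of these differences was tested. In the pairs labelled brain and ovary, 11 of the 16 members above both levels were at least 2-fold different in opposite directions, against 34% of all such genes. Cacna1a, Cacna1h, Cacna1i, Cacna2d1, Cacna2d3, Cacnb3, Cacnb4, Scn2b, Scn4b and Scn8a were lower on SHT brain and higher on SHT ovary than on the matching mock arrays, and Scn7a did the reverse. Since SHT ovary and mock brain read nearly alike, genes set apart on both were bound to reverse between these pairs. That count thus describes and does not test. The other results were each 1 of 10 members, near the share of all genes. Between the pairs labelled brain and uterus it was Cacna1c, against 6.76% of genes. Its readings on SHT brain, mock brain and mock uterus were all within the background, so that the brain difference has no fold. Between those labelled ovary and uterus it was Cacna1a, against 10.5%, with log2 differences of 3.76 and -1.22.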

How the results depend on the processing

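The level floor moved the counts of called members most. With the floor at the 25th percentile, 25 members were at least 2-fold lower in the pair labelled brain, 21 higher in that labelled ovary, and 5 higher and 2 lower in that labelled uterus; with no floor these were 27, 21, 8 and 2. With the floor at the 75th percentile, 6 were lower and 0 higher in brain, 0 lower in ovary and 0 higher and 0 lower in uterus. With a 3-fold threshold, 0 were higher and 0 lower in uterus. These shifts follow from how many genes each setting admits. Shares of all genes are not on hand at these settings, and the lower floors admit members within the background on both arrays. The other 53 recomputed counts, 15 having moved, stayed within 1.5 times the main ones, those without each labelled tissue among them (0 genes called each time). The limma counts among these were 0 at every setting and so say little about stability. No called member changed direction under the 4 scaling, probe and background alternatives, and the differences of the 22 members moved by over 1.5-fold in 10 of 66 cases when a gene's probes were averaged and 8 of 66 with values raised to the olfactory receptor median. With 1 array per group no paired analysis was possible, other than the limma fit with labelled tissue as block, without which 0 genes were called too. Readings within the background, including all of 15 members, set no order.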

Other observations

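Scn4b is known for its expression in striatum, the basal ganglia region that also expresses Rgs9, Drd1, Penk and Ppp1r1b. After its ratio of SHT ovary to mock brain was seen, 10 genes known from striatal neurons were looked up, of which 8 had a named probe and 7 were above the background on both arrays. The ratio was 1.43 for Rgs9 (1550.4 on SHT ovary against 1083 on mock brain), 1.36 for Rasd2, 1.34 for Penk and 1.34 for Drd1. It was 1.09 for Ppp1r1b, 1.01 for Pde1b and 0.95 for Pde10a. Over the 7810 genes above the background on both arrays, this ratio had a median of 0.99, a 5th percentile of 0.80 and a 95th percentile of 1.202. The list was chosen after the Scn4b value was seen, each array stands alone, and no test was made.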
